A study of Mus musculus with 9 samples.

Results

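Serpins are a large family of proteins that share 1 fold, and most of them inhibit proteases. An inhibitory serpin presents a bait, the reactive centre loop, is cleaved there, and snaps into a new shape that traps the protease for good. Clade A serpins are mostly secreted plasma proteins, among them the inhibitors of neutrophil elastase that guard the lung. Clade B serpins mostly act inside cells, and clade E serpins restrain thrombin and the activators of plasminogen. The serpins were taken as every probe whose symbol began with Serpin, a clade letter from a to i and a number, with the probe of highest mean intensity standing for each symbol. This gave 57 serpins of 25757 genes, and 56 of them had enough values for a test, as had 25716 genes in all. There were 22 serpins of clade A, 24 of clade B and 3 of clade E. The other 8 belonged to clades C, D, F, G, H and I.

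The series measured whole-lung RNA of BALB/c mice at about 12 weeks of age on 9 Agilent arrays of 2 colours. The lungs came from mice given PBS (phosphate-buffered saline, 4 arrays) or challenged with ovalbumin (OVA, an egg-white allergen, 5 arrays). By the labels, channel 2 of each array held the Cy5-labelled RNA of a single lung sample, and channel 1 held Cy3-labelled RNA combined from the PBS lungs. The labels do not say that every lung came from a mouse of its own, so each p-value measures the spread between these arrays. Where channel 1, by the labels a combined RNA, carries a difference, this spread need not be one between lungs. In whole lung, fewer cells of a type and less RNA per cell cannot be told apart.

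Each array had values for 39376 to 39451 probes, with a median intensity between 0.12 and 0.17 on the deposited scale, in steps of about 0.01. The number of arrays limits the precision. Lung markers were present, and the summed intensity of 7 alveolar type 1 markers lay between 102 and 162 in every channel. The single channels did not follow the labels. Channel 1 of the OVA arrays, labelled as PBS RNA, stood apart, while channel 2 of the OVA arrays was close to both channels of the PBS arrays. Goblet cell markers show this, since 8 of them summed to between 1.67 and 2.07 in channel 1 of the OVA arrays and to between 48.4 and 60.2 elsewhere. All directions below are therefore those of the deposited ratio, channel 2 over channel 1, compared between OVA and PBS arrays. Whether the lungs differed in this direction or in the opposite one cannot be told apart here, and counts with the sign of the OVA ratios turned are given beside the main ones.

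In the deposited ratio, 12 of the 56 serpins tested were higher on the OVA arrays, 6 were lower, and 38 did not pass the adjusted p threshold of 0.05. The share of serpins past the threshold was 32.1%, against 40.3% of all genes tested. Among all genes 17.3% were higher and 23% were lower. The median log2 difference of the serpins was 0.00, and that of all genes was -0.02. The change was at least 2-fold for 5 serpins, all of them higher, where 3.04% of all genes changed by that much and 2.45% were higher. For 10 serpins every OVA array lay above every PBS array, and for 5 every OVA array lay below. Of all genes 14.8% lay above in this way, 19.7% lay below and 34.5% did either. With the OVA ratios turned in sign, 6 serpins were higher and 11 were lower, against 22.5% and 16.5% of all genes. The authors' deposited p-values were under 0.01 on all 5 OVA arrays for 8 serpins, namely Serpina10, Serpina3g, Serpina3h, Serpina3i, Serpina3k, Serpina3n, Serpind1 and Serpine2. Of all genes, 7.72% met that rule. On at least 1 PBS array the deposited p-value was under 0.01 for 2 serpins, Serpinb11 and Serpinb2, and for 0.666% of all genes.

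**Figure D1:**
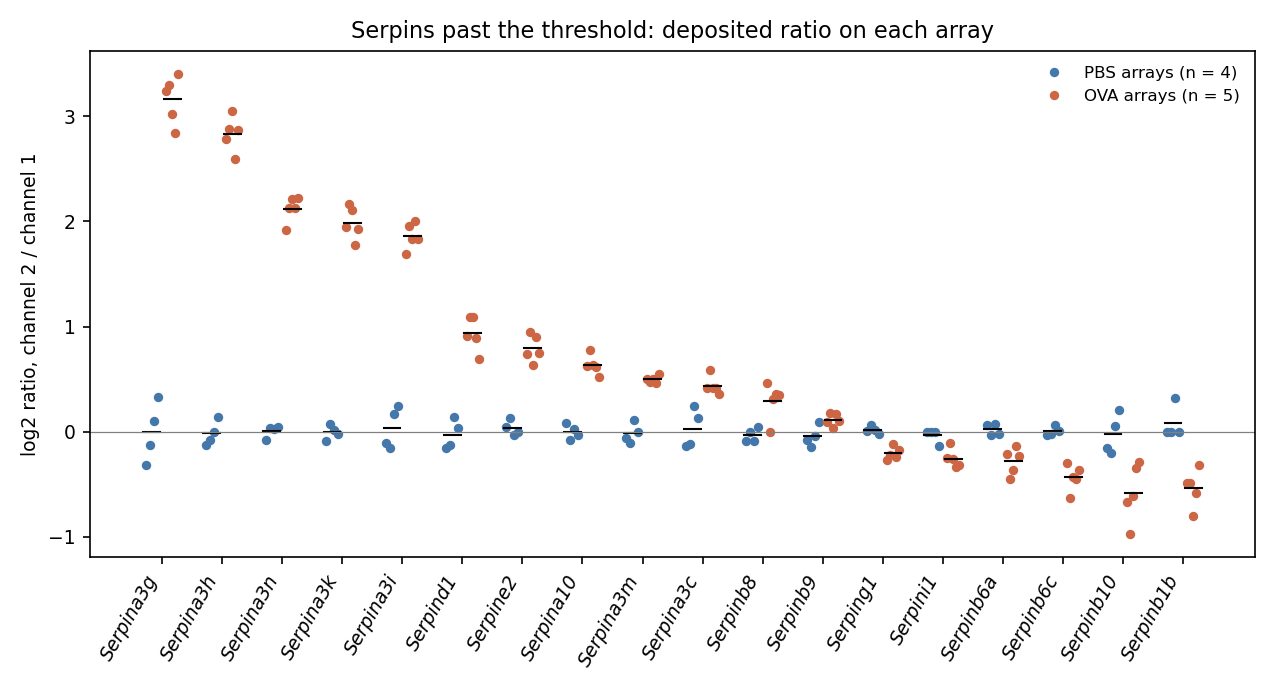
Log2 ratio of channel 2 over channel 1 on each array for the 18 serpins past the threshold, ordered by their change. Points are arrays, and short lines are group means. The 5 leading Serpina3 genes lay between 1.69 and 3.41 on the OVA arrays, and the PBS ratios of all 18 lay between -0.32 and 0.33.

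Clades A, B and E were then counted apart, with no test between them. The share past the threshold was 36.4% in clade A, 25% in clade B and 33.3% in clade E. It was 42.9% in the other clades and 40.3% among all genes. Of the 22 clade A serpins, 8 were higher and 0 were lower, with a median log2 difference of 0.13. Of the 24 clade B serpins, 2 were higher and 4 were lower, with a median of -0.09. Of the 3 clade E serpins, 1 was higher and 0 were lower. Of the 7 tested serpins of the other clades, 1 was higher and 2 were lower, with a median of -0.12. With the sign turned, these counts became 0 higher and 8 lower in clade A, 4 and 1 in clade B, 0 and 1 in clade E, and 2 and 1 in the others. For 21 serpins the mean intensity was under 0.1, and 1 of these passed the threshold, while 17 of the 35 brighter ones did. Of all genes, 12.3% passed below that intensity and 55.1% at or above it.

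Clade A held the largest changes, and within it they lay in the Serpina3 genes. The mouse genome carries many Serpina3 copies, where the human genome has a single SERPINA3, the gene of alpha-1-antichymotrypsin. Of 9 Serpina3 genes measured, 7 were higher and 0 were lower, where 17.3% of all genes were higher and 23% were lower. The median log2 difference of these 9 was 1.82. The median of the 9 ratios was 1.69, 1.95, 1.83, 1.77 and 1.84 on the OVA arrays and -0.09, -0.08, 0.03 and 0.04 on the PBS arrays. Every OVA array thus lay far above every PBS array. The 8 other clade A serpins outside the Serpina1 genes gave 1 call, Serpina10, and the 5 Serpina1 genes gave 0. Among all genes 40.3% passed, and 12.3% of those under a mean intensity of 0.1.

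Serpina3g encodes Spi2A, a serpin of leukocyte interiors that inhibits cysteine cathepsins. Its log2 ratios were 3.24, 3.30, 3.02, 2.84 and 3.41 on the OVA arrays and -0.32, -0.12, 0.10 and 0.33 on the PBS arrays. No OVA value came near a PBS value. The difference was 3.17 ± 0.16 (SE, n = 5 and 4), which is 8.97-fold, with limma's adjusted p = 1.73e-06.

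Serpina3h is annotated by RefSeq as a transcribed pseudogene. Its ratios were 2.78, 2.88, 3.05, 2.59 and 2.87 on the OVA arrays, and on the PBS arrays they ran from -0.12 to 0.14. The groups were far apart, by 2.85 ± 0.09 or 7.22-fold (limma's adjusted p = 2.62e-07).

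Serpina3n, the member studied most as a counterpart of human SERPINA3, inhibits granzyme B and neutrophil proteases. Its ratios were 1.92, 2.13, 2.21, 2.13 and 2.22 on the OVA arrays and -0.08, 0.03, 0.03 and 0.04 on the PBS arrays. The values within each group were close together, and the groups did not overlap. The difference was 2.12 ± 0.06, or 4.33-fold (limma's adjusted p = 1.64e-07).

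Serpina3k is known as contrapsin, an inhibitor of trypsin-like proteases in mouse plasma. On the OVA arrays its ratios were 1.94, 2.17, 2.11, 1.77 and 1.93, and on the PBS arrays they were -0.09, 0.07, 0.01 and -0.02. All OVA values lay above all PBS values, with a difference of 1.99 ± 0.08 or 3.97-fold (limma's adjusted p = 5.91e-07). Serpina3i had ratios of 1.69, 1.95, 1.83, 2.00 and 1.84 on the OVA arrays and -0.11, -0.15, 0.17 and 0.25 on the PBS arrays. These groups were also separate, by 1.82 ± 0.10 or 3.54-fold (limma's adjusted p = 2.94e-06).

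The other Serpina3 genes had smaller differences. Serpina3m was higher by 0.51 ± 0.04, with OVA ratios between 0.46 and 0.55 (limma's adjusted p = 3.75e-05). A second, dimmer probe of Serpina3m gave 0.25 ± 0.21 and did not pass. Serpina3c, also called kallikrein binding protein, was higher by 0.41 ± 0.09 (limma's adjusted p = 0.00534), and the OVA arrays of both genes lay above their PBS arrays. All channel means of Serpina3c were 0.12 or less, so that single steps of the deposited scale show in its ratio. The authors' deposited p-value for it was under 0.01 on 1 OVA array. Serpina3a at 0.05 and Serpina3b at 0.15 did not pass, and both were among the dim serpins. The Serpina3 genes are near copies of each other, probe sequences were not used here, and whether 1 transcript lit several probes was not tested.

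The called Serpina3 genes lay side by side. In RefSeq's order along mouse chromosome 12, the clade A cluster runs from Serpina10 to Serpina3n and holds 28 genes and pseudogenes named Serpina, of which 14 are Serpina3. From Serpina3c to the end of the cluster, every gene with a probe was higher. Between Serpina10 and Serpina3c, all 14 genes with a probe did not pass the threshold, Serpina16 included, which stood on the array under another name and is not among the 57. Most of these 14 lay under a mean intensity of 0.1, where 12.3% of all genes passed. Of the flanking genes, Ppp4r4 was lower, at -0.56 ± 0.09, Ifi27l2b was higher by 0.56 ± 0.08, and Ifi27 and Gsc did not pass. Serpina1a, Serpina3f and Serpina3j had no probe matched by symbol and were not analysed here.

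**Figure D2:**
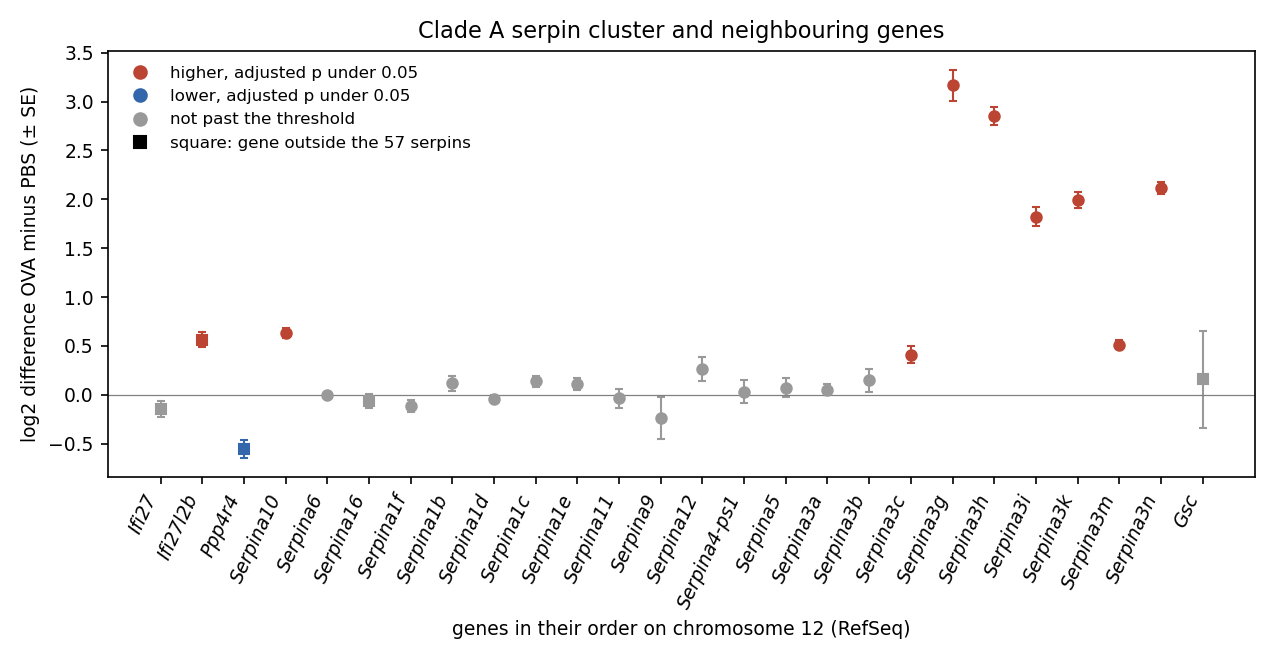
Log2 difference of the OVA minus the PBS ratio (± SE) for genes of the clade A cluster in their order on chromosome 12, equally spaced. The 7 genes past the threshold at the right are Serpina3c to Serpina3n, from 0.41 to 3.17, and Serpina10 at the left stood at 0.63.

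Promoters of 4 of the 7 called Serpina3 genes are printed here because these genes moved together and lie in 1 cluster. Those of Serpina3h, Serpina3k and Serpina3m are not shown. RefSeq promoters (build GRCm38.p6, 250 bases before to 50 after the start) matched 46 of the 57 serpins. They included Serpina3c (chr12:104153823-104154122 on the minus strand), Serpina3g (chr12:104235897-104236196 on the plus strand), Serpina3i (chr12:104262872-104263171 on the plus strand) and Serpina3n (chr12:104406458-104406757 on the plus strand). For Serpina3b, a neighbour that did not pass the threshold, the window was chr12:104127746-104128045 on the plus strand. Capitals mark the longest run of bases that the first 4 share, CAGAGCACAGCTT, found by comparing them, and any TTCNNNGAA, the palindrome that STAT factors bind.
Serpina3c: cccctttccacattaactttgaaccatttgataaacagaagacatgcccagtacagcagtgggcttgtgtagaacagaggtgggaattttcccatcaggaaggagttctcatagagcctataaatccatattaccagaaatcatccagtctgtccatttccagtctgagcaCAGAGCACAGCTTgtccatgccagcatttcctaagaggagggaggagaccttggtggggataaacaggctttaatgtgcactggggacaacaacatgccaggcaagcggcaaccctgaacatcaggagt
Serpina3g: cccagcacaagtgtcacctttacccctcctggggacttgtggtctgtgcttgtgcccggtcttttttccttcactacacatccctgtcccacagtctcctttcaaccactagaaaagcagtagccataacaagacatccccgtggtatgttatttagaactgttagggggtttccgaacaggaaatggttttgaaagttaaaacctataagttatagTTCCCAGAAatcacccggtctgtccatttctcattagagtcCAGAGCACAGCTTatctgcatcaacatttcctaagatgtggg
Serpina3i: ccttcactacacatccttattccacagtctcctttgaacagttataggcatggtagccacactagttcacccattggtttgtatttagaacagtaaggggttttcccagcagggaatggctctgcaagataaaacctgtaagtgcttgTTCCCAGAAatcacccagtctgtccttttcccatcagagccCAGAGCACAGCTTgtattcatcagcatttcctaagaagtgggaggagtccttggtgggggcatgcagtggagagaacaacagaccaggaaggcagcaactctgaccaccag
Serpina3n: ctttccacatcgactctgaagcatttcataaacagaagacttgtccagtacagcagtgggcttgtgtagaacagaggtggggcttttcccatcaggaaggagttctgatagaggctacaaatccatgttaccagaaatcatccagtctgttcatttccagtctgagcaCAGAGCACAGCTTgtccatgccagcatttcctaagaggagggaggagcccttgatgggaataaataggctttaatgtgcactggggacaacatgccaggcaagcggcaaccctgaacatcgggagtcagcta
Serpina3b: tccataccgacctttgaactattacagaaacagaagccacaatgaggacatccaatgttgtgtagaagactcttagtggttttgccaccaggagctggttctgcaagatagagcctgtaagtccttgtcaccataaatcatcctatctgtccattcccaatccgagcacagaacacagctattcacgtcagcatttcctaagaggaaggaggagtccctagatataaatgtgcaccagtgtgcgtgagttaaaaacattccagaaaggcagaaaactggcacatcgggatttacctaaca
Both strands were searched, and the marked stretches of the 2 motifs do not overlap. The shared run of 13 bases stood in 7 of 32851 promoters (0.0213%), which belong to Serpina3c, Serpina3f, Serpina3g, Serpina3i, Serpina3n and Olfr374. The run was found by comparing the 4 called genes, so its presence in those was fixed beforehand. No other of the 46 serpins with a promoter had it. It began at -79, -61 and -82 bases from the start in Serpina3c, Serpina3i and Serpina3n, and at 8 in Serpina3g. Over the aligned bases, identity was 93.5% (294 bases) between Serpina3c and Serpina3n and 81.7% (229 bases) between Serpina3g and Serpina3i. The other 4 pairs ran from 71.7% to 76.7%. TTCNNNGAA stood in 8.30% of all promoters and in 7 of the 46 serpin promoters, Serpina3g and Serpina3i among them. The Serpina3b window held neither run exactly, but it held the similar stretch cagaacacagcta. These matches describe the letters only.

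The level of each channel shows which measurements carried the ratios. For Serpina3h the intensity was 2.21 ± 0.15 (SD, n = 5) in channel 1 of the OVA arrays and 15.8 ± 1.7 in channel 2. On the PBS arrays it was 16.3 ± 0.62 in channel 1 and 16.1 ± 1.5 in channel 2 (n = 4). Only channel 1 of the OVA arrays was low. Serpina3g was likewise 0.556 ± 0.11 there, against 4.91 ± 0.34 in channel 2 of the OVA arrays and 5.07 ± 0.29 and 5.16 ± 1.2 in the channels of the PBS arrays. Serpina3n was 0.87 ± 0.11 in channel 1 of the OVA arrays, and its 3 other means lay between 3.77 and 3.89. Channel 1 taken alone called 15 serpins, 12 lower and 3 higher on the OVA arrays, among them 13 of the 18 called by the ratio, where 27.7% of all genes were called. Channel 2 taken alone, the channel labelled with the lung samples, called 0 serpins in limma, with 5 at an unadjusted p under 0.05 and 0.00778% of all genes called.

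**Figure D3:**
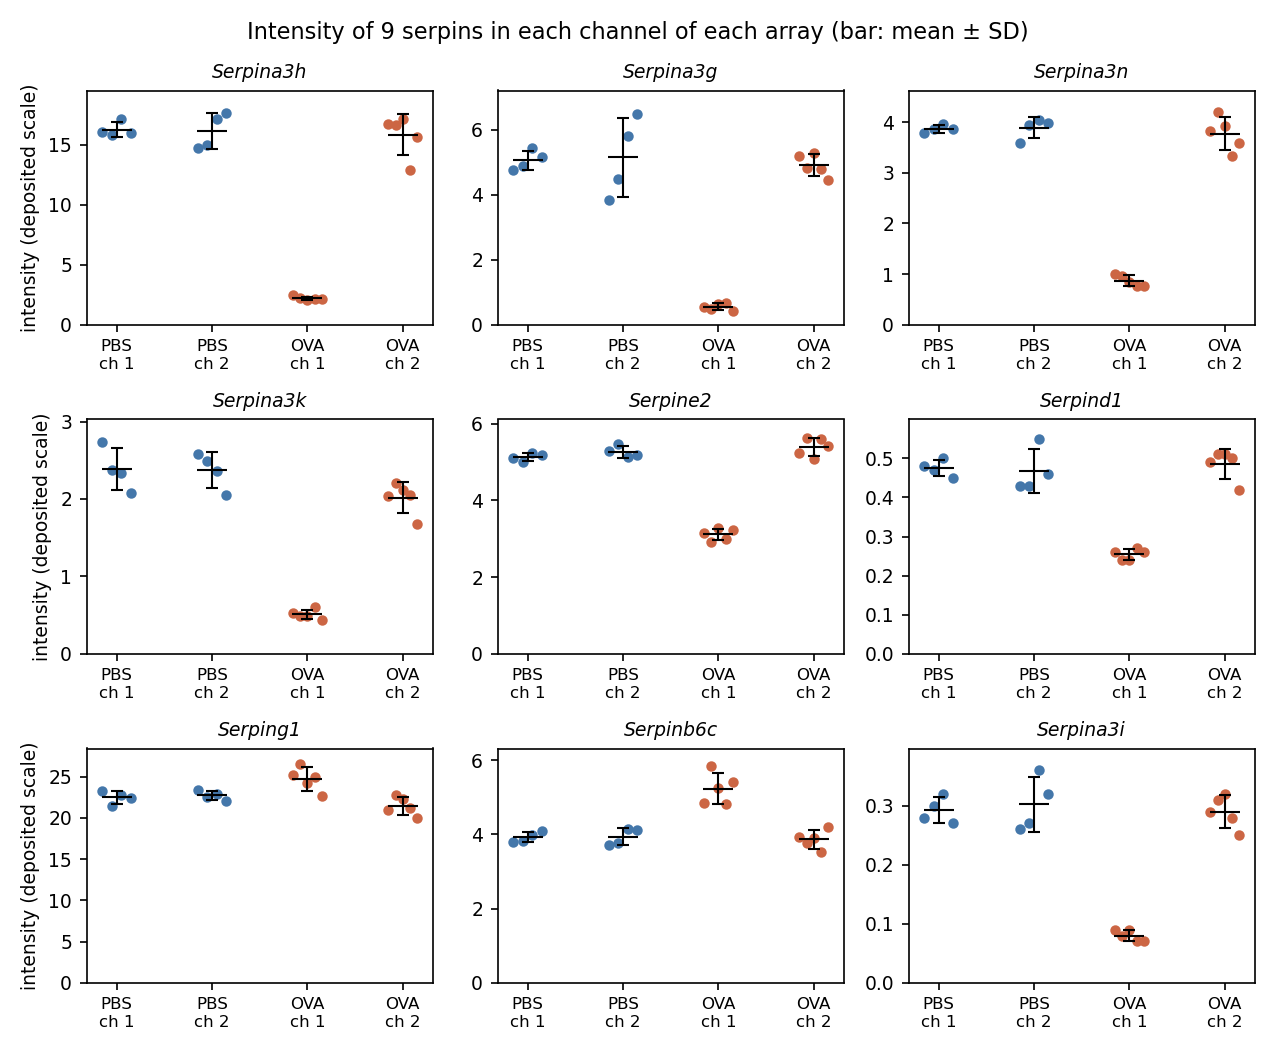
Intensity on the deposited scale in channel 1 and channel 2 of the PBS arrays (n = 4) and OVA arrays (n = 5) for 9 serpins. Points are arrays, and bars are mean ± SD. For Serpina3h the mean was 2.21 in channel 1 of the OVA arrays and 15.8 to 16.3 in the other 3 sets, while Serping1 and Serpinb6c were highest in that channel.

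Markers of several cell types moved with the Serpina3 genes, where 17.3% of all genes were higher. Those of other cell types mostly moved the other way, where 23% of all genes were lower. Of 9 endothelial markers 1 was higher and 7 were lower, and of 7 alveolar type 1 markers 1 and 6. Of 6 club cell markers 0 were higher and 4 lower, while 8 fibroblast markers gave 4 higher and 4 lower. All 8 goblet cell markers were higher, with a median log2 difference of 3.01 and the channel sums given above. Of 6 eosinophil markers 3 were higher and 0 lower. Their sum was 5.56 to 6.27 in channel 1 of the OVA arrays and 16.6 to 19.9 in the other channels. Most of that sum was Ear2, with a channel 1 mean of 14.3 on the PBS arrays and 3.66 on the OVA arrays. Prg2, Il5ra and Ccr3 did not pass, with Ccr3 at -0.01. Of 8 macrophage and monocyte markers tested, 7 were higher and 0 lower in the ratio, with a median of 1.68, and their sum was 10.4 to 11.8 in channel 1 of the OVA arrays and 40.9 to 44.0 in the other channels. The lowest value of any marker in these lists was 0.05, and the part of these cells in the Serpina3 result was not tested.

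The Serpina1 genes encode alpha-1-antitrypsin, the main plasma inhibitor of neutrophil elastase. Serpina1b had log2 ratios of 0.00, 0.17, 0.00, 0.22 and 0.22 on the OVA arrays and 0.00, -0.15, 0.00 and 0.17 on the PBS arrays. The groups overlapped, and the difference of 0.12 ± 0.08 did not pass (limma's adjusted p = 0.279). Its intensity was 0.095 ± 0.013 in channel 1 of the PBS arrays, so that single steps of the deposited scale show in the ratio. The others, Serpina1c, Serpina1d, Serpina1e and Serpina1f, ranged from -0.12 to 0.14. The 13 liver markers, measured because these serpins are made in liver, gave 1 higher and 0 lower, and summed to between 2.63 and 3.76 over all channels and arrays. Their neutrophil targets Elane and Ctsg, the genes of neutrophil elastase and cathepsin G, stood at 0.21 ± 0.11 and 0.11 ± 0.05. Neither passed, and 0 of the 7 neutrophil granule genes did, against 40.3% of all genes. The median intensity of these 7 was 0.096, and 12.3% of all genes under 0.1 passed. A separate list of 7 neutrophil markers, with a median intensity of 2.43, gave 2 higher and 2 lower. Retnlg and Cxcr2 were higher by 3.43 ± 0.07 and 0.31 ± 0.06. S100a8 and S100a9 were lower, at -0.61 ± 0.14 and -0.53 ± 0.15.

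Serpina10 encodes the protein Z-dependent inhibitor of factor Xa. It was higher by 0.63 ± 0.05, with OVA ratios from 0.52 to 0.77 above PBS ratios from -0.08 to 0.08 (limma's adjusted p = 3.01e-05). Other clade A serpins carry hormones or restrain other proteases. Serpina6, which binds cortisol, stood at 0.00, and Serpina5, the protein C inhibitor, at 0.07, and neither passed. Over the 14 clade A serpins that did not pass, the differences ran from -0.24 to 0.26.

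In clade B, 6 of 24 serpins passed the threshold (25%, against 40.3% of all genes), 4 lower and 2 higher, and over all genes too more calls were lower than higher. Serpinb6c and Serpinb6a belong to the group of mouse serpins related to human SERPINB6, an inhibitor of cathepsin G and trypsin-like proteases. Serpinb6c was lower, at -0.44 ± 0.06 (limma's adjusted p = 0.000675), with OVA ratios of -0.30, -0.64, -0.43, -0.45 and -0.36. Serpinb6a was lower, at -0.30 ± 0.06 (limma's adjusted p = 0.00586). For both, all OVA arrays lay below all PBS arrays. The related Serpinb6b and Serpinb6e stood at -0.02 and 0.01 and did not pass.

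Serpinb10, known in human as bomapin and found in myeloid cells, was lower, at -0.56 ± 0.15 (limma's adjusted p = 0.0185). It lost its call without PBS array 3 (adjusted p = 0.0524) or PBS array 4 (0.0558). Serpinb1b, a copy of the elastase inhibitor gene, was lower, at -0.62 ± 0.11 at intensities of 0.064 ± 0.0089 or less in every channel mean. Its OVA ratios all lay below its PBS ratios. Serpinb8, an inhibitor of furin in human cells, was higher by 0.33 ± 0.09 (limma's adjusted p = 0.017), although OVA array 2 stood at 0.00 within the PBS range.

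Serpinb9 protects cytotoxic lymphocytes from their own granzyme B. Its ratios were 0.09, 0.18, 0.03, 0.17 and 0.10 on the OVA arrays and -0.08, -0.15, -0.04 and 0.09 on the PBS arrays. The groups overlapped in part. The difference of 0.16 ± 0.05 just passed (limma's adjusted p = 0.0413), and it no longer did when any 1 of 7 of the 9 arrays was left out, with adjusted p-values up to 0.102. Of the 5 other Serpinb9 genes 0 passed. Its target Gzmb, the gene of granzyme B, was higher by 0.79 ± 0.14, and the perforin gene Prf1 was lower, at -0.37 ± 0.05. Among 11 granzyme and perforin genes, 2 were higher and 1 was lower (27.3%, against 40.3% of all genes).

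Serpinb1a, which inhibits neutrophil elastase, cathepsin G and proteinase 3, had ratios of -0.14, -0.10, -0.20, 0.08 and -0.13 on the OVA arrays and -0.17, 0.12, 0.04 and 0.08 on the PBS arrays. The groups overlapped, and the difference of -0.11 ± 0.07 did not pass (limma's adjusted p = 0.271). Serpinb2 is plasminogen activator inhibitor type 2. Its ratios were 0.22, -0.19, 0.00, 1.22 and 1.22 on the OVA arrays and 0.36, 0.36, -0.81 and 0.00 on the PBS arrays. These values scattered widely at channel means of 0.07 or less, and the difference of 0.52 ± 0.39 did not pass (limma's adjusted p = 0.347).

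A set of 5 clade B genes, picked after their values were seen, stood out on a single array. Serpinb3b and Serpinb3c are relatives of the human squamous cell carcinoma antigens, and Serpinb11, Serpinb12 and Serpinb13 are best known from skin and other layered epithelia. On OVA array 2 their log2 ratios were -2.13, -5.53, -3.52, -3.74 and -2.70, in that order. On the other OVA arrays the 5 genes ran from -0.42 to 0.58. Channel 1 of that array carried the difference, with 2.78 for Serpinb3c, 4.69 for Serpinb12 and 1.03 for Serpinb11. The same channel of the other OVA arrays had at most 0.05, 0.30 and 0.07. None of the 5 passed the threshold between groups. The other Serpinb3 genes did not share this. Serpinb3d stood at 0.49 on OVA array 2, with 0.05 in channel 1. Serpinb3a stood at -0.40 there, with 2.83 in channel 1, inside its range of 2.36 to 5.50 on the other OVA arrays.

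Squamous keratins stood high in the same channel of the same array. Krt13 was at 40.7 and Krt4 at 7.18, and the cornified envelope gene Lor was at 39.1. The 17 squamous markers on the array summed to 95.4 there, to between 3.24 and 4.20 in channel 1 of the other OVA arrays, and to between 3.78 and 4.63 in channel 1 of the PBS arrays. In channel 2 of OVA array 2 the sum was 7.75. Of the 17 markers, 11 had their highest value over both channels and all arrays in channel 1 of that array. None of the 17 was at 0 (the lowest value was 0.02). By the labels channel 1 holds the same combined RNA on every array, and the part of squamous tissue in these ratios was not tested. Without OVA array 2, 11 serpins were higher and 6 were lower.

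**Figure D4:**
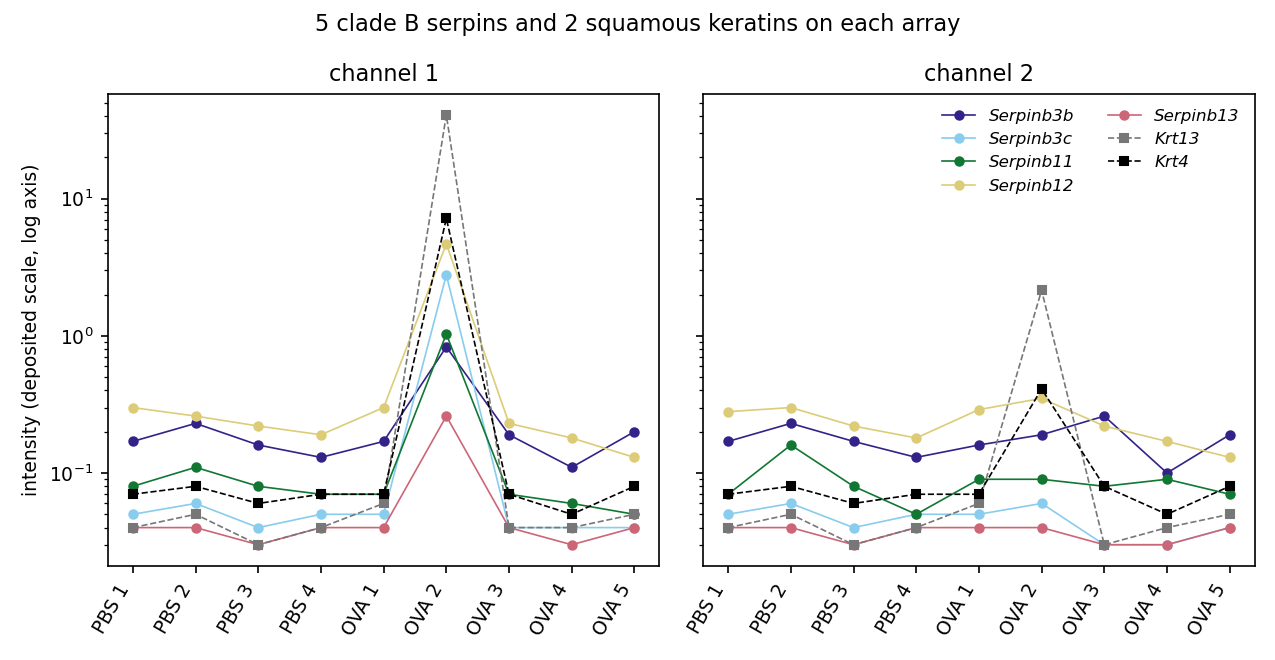
Intensity on a log axis (deposited scale) of 5 clade B serpins and the keratins Krt13 and Krt4 on each array, with channel 1 at left and channel 2 at right. In channel 1 of OVA array 2, Serpinb12 reached 4.69 and Krt13 reached 40.7, and both stood far lower in channel 1 of every other array.

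In clade E, Serpine2 passed the threshold. Serpine2 is protease nexin 1, which inhibits thrombin and urokinase at cell surfaces. Its log2 ratios were 0.74, 0.95, 0.63, 0.90 and 0.75 on the OVA arrays and 0.05, 0.13, -0.03 and 0.00 on the PBS arrays. All OVA values lay above all PBS values, and the difference was 0.76 ± 0.07 or 1.69-fold (limma's adjusted p = 4.68e-05). Its intensity was 3.11 ± 0.15 in channel 1 of the OVA arrays and 5.39 ± 0.23 in channel 2.

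Serpine3 stood at -0.16 ± 0.07 and did not pass. Clade E serpins act on the enzymes that make plasmin, the protease that dissolves fibrin. Of 9 plasminogen activation genes, 3 were higher and 1 was lower (44.4%, against 40.3% of all genes). Plau, the gene of urokinase, was higher by 0.48 ± 0.07, its receptor gene Plaur was higher by 0.27 ± 0.07, and Thbd, the gene of thrombomodulin, was lower, at -1.01 ± 0.06.

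The remaining clades regulate clotting, complement and other processes. Serpind1 is heparin cofactor II, which inhibits thrombin. Its ratios were 0.91, 1.09, 1.09, 0.89 and 0.69 on the OVA arrays and -0.16, -0.13, 0.14 and 0.03 on the PBS arrays. The groups were separate, by 0.96 ± 0.10 or 1.95-fold (limma's adjusted p = 8.88e-05). Serpinc1, antithrombin, had OVA ratios of 0.00 on arrays 1 to 4 and 0.19 on array 5, and PBS ratios of -0.17, 0.00, -0.19 and 0.22. The groups overlapped, and 0.07 ± 0.09 did not pass (limma's adjusted p = 0.553). Of 20 clotting genes, 6 were higher and 6 were lower (60%, against 40.3% of all genes). F10, the gene of the factor X that Serpina10 restrains once active, was higher by 3.17 ± 0.08. F7, which starts clotting with tissue factor, was higher by 2.35 ± 0.05, and the inhibitor gene Tfpi2 by 1.54 ± 0.13.

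Serping1 is the C1 inhibitor, which holds back complement C1 and plasma kallikrein. Its ratios were -0.27, -0.22, -0.12, -0.24 and -0.17 on the OVA arrays and 0.01, 0.07, 0.01 and -0.02 on the PBS arrays. All OVA values lay below all PBS values, by a small difference of -0.22 ± 0.03 or 1.17-fold (limma's adjusted p = 0.00102). The genes of its targets were called in both directions, the lower ones on dim probes. The C1 protease genes C1ra and C1s1 were higher by 0.80 ± 0.03 and 0.71 ± 0.03. Klkb1, the gene of plasma kallikrein, was lower, at -0.42 ± 0.12, and the lectin pathway gene Masp2 was lower, at -0.46 ± 0.08. Their mean intensities were 0.036 and 0.071, so that single steps of the deposited scale show in the ratio. The groups of Klkb1 overlapped. Of 7 complement protease genes 3 were higher and 1 was lower (57.1%, against 40.3% of all genes). Cfb, the gene of factor B, was higher by 1.68 ± 0.11.

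Serpinf1, pigment epithelium-derived factor, does not inhibit proteases. It had ratios of -0.30, -0.19, -0.16, -0.36 and -0.07 on the OVA arrays and 0.18, 0.10, -0.08 and -0.24 on the PBS arrays. The groups overlapped, and -0.21 ± 0.09 did not pass (limma's adjusted p = 0.115), although it did without PBS array 4 (adjusted p = 0.0316). Serpinf2, the plasmin inhibitor alpha-2-antiplasmin, had ratios of 0.00, -0.09, 0.00, -0.13 and -0.13 on the OVA arrays and 0.11, 0.08, 0.00 and -0.13 on the PBS arrays. It overlapped too, at -0.08 ± 0.05 (limma's adjusted p = 0.274).

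Serpini1, neuroserpin, inhibits tissue plasminogen activator. On the OVA arrays its ratios were -0.25, -0.11, -0.26, -0.34 and -0.32, and on the PBS arrays 0.00 on arrays 1 to 3 and -0.14 on array 4. PBS array 4 lay inside the OVA range, and the difference of -0.22 ± 0.05 passed (limma's adjusted p = 0.0107).

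Serpinh1 encodes HSP47, a chaperone of collagen rather than an inhibitor. Its brightest probe had a value only on OVA array 3, a log2 ratio of 0.39, and could not be tested. A second probe had a value on all 9 arrays. Its ratios were 0.51, 0.46, 0.73, 0.60 and 0.43 on the OVA arrays and -0.02, 0.01, -0.14 and 0.08 on the PBS arrays. All OVA values lay above the PBS values, with a difference of 0.56 ± 0.07 or 1.48-fold (limma's adjusted p = 0.000402 in the fit of single probes). Of 16 genes of collagen folding and secretion, 9 were higher and 3 were lower (75%, against 40.3% of all genes). Their median intensity was 2.39, and 55.1% of all genes at or above 0.1 passed. The collagen gene Col3a1 was higher by 1.28 ± 0.10 and the lysyl hydroxylase gene Plod2 was lower, at -0.87 ± 0.06.

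Further proteases and inhibitors were read from the same fit, in which 40.3% of all genes passed the threshold. The share was 90% for the cysteine cathepsins and 55.6% for the mast cell and basophil proteases. Their median intensities were 8.44 and 0.087. The partner lists differed in intensity, and of all genes 55.1% passed at or above 0.1 and 12.3% below it. The share was 36.4% for the airway and membrane serine proteases and 38.2% for the other inhibitors, both below that of all genes. Of 10 cysteine cathepsins, which Serpina3g can inhibit in part, 7 were higher and 2 were lower, and Ctsk was higher by 2.92 ± 0.05, Ctsz by 1.92 ± 0.07 and Ctss by 1.86 ± 0.08. Of 9 mast cell and basophil proteases, 5 were higher and 0 were lower, led by Mcpt8 at 2.04 ± 0.18. Of 22 airway and membrane serine proteases, 5 were higher and 3 were lower, with Klk1 higher by 1.60 ± 0.08, Tmprss4 higher by 0.95 ± 0.05 and Prss8 lower, at -0.45 ± 0.05. Of 34 inhibitors outside the serpin family, 8 were higher and 5 were lower. The metalloprotease inhibitor gene Timp1 was higher by 3.74 ± 0.10, A2m, the gene of alpha-2-macroglobulin, by 1.44 ± 0.09, and the cystatin gene Cstb by 1.34 ± 0.08.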

How the data were processed

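Total RNA went through 2 rounds of amplification before hybridisation in 2 colours, per the labels' protocols. The submitters' processing notes name Agilent Feature Extraction 8.5.1.1. How the authors corrected background, normalized dyes and scaled the channels was not given in the sources used here. A deposited table holds for each of 39464 probes an intensity in each channel and a p-value per array, per the file headers. At least 98.1% of values had no more than 2 decimals, and both channels held the same value for 27.7% to 48.8% of probes per array. A second deposited table of log10 ratios matched channel 2 over channel 1. The median log2 ratio of the deposited intensities was 0 on every array. There were 0 columns of other samples.

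Columns were matched to samples by name, and the channel 2 source name gave each sample its group. Gene symbols were updated with RefSeq (GRCm38.p6), used for names, gene order and promoters. Each gene was represented by its probe of highest mean intensity. For the comparison of OVA with PBS arrays, log2 ratios were fitted with limma 3.58.1 (R 4.3.3) using lmFit and eBayes, with two-sided p-values adjusted by Benjamini-Hochberg across every gene that had at least 2 values per group, and the fit was tested on simulated ratios. Changes are log2 differences ± the moderated SE.

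Values on every array are given for serpins past the threshold by at least 2-fold and for 16 serpins with a long known role, and the other serpins by counts or by their difference. Of the 16, 1 is not reported here. Of each list of partner genes, up to 3 with the largest change past the threshold are named, or others to give a serpin's target. The serpins, lists and rules were chosen with earlier results of these data known. Sets of genes described from 1 array or from promoters were picked after their values were seen. Alternatives tried were ratios of the log10 table, quantile, median and loess normalization, 0.05 added to both channels, a filter on dim probes, other uses of a gene's probes, a replicate block, other priors and array weights, stricter thresholds, the sign turned, single channels, OVA arrays against 0, and each array left out.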

Additional observations from a re-analysis of the deposited data

Results flagged for a closer look

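Within a group, 1 array stood apart from the others by a wide gap for 10 serpins. Over the 25 serpins examined singly, 5 of 50 groups held such an array, and in 3 of the 5 all other arrays were tied. Chance flags about 1 in 20 groups, a share that does not cover tied values. A further 6 gaps came from 5 clade B serpins that were picked because OVA array 2 stood apart, so their number is a description. On OVA array 2 the log2 ratio was -5.53 for Serpinb3c, where the other OVA arrays ran from -0.42 to 0.00. On that array it was -3.74 for Serpinb12, -3.52 for Serpinb11, -2.70 for Serpinb13 and -2.13 for Serpinb3b, and the squamous markers in channel 1 of that array were high as well. Serpina3c stood at 0.58 on the same array, with the others from 0.36 to 0.42.

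The other gaps were small in size. Serpina3n was at -0.08 on PBS array 1, with the others from 0.03 to 0.04. In 4 cases the other arrays of the group were all at 0.00 and the channels of the remaining array differed by 0.01 on the deposited scale. These were Serpinb1b at 0.32 and Serpinb3b at 0.09 on PBS array 3, Serpini1 at -0.14 on PBS array 4 and Serpinc1 at 0.19 on OVA array 5.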

How the results depend on the processing

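Under the second table, median centring, loess, 0.05 added to both channels, array weights, the trended robust prior, the mean over probes and a fit of single probes, all 25 serpins examined singly kept their direction and their side of the threshold, with 12 to 13 serpins higher and 6 lower. Without the dimmest 0.25 of probes, 24 of them could be fitted and kept both as well, with 13 serpins higher and 5 lower.

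With the OVA ratios turned in sign, 6 serpins were higher and 11 lower, with 0 and 8 in clade A, 4 and 1 in clade B, and 0 and 1 in clade E. Serpinb9 did not pass in that setting. The log2 differences were then -0.63 for Serpina10, -0.47 for Serpina3c, -3.16 for Serpina3g, -2.82 for Serpina3h, -1.90 for Serpina3i, -1.98 for Serpina3k, -0.48 for Serpina3m, -2.13 for Serpina3n, 0.60 for Serpinb10, 0.46 for Serpinb1b, 0.26 for Serpinb6a, 0.43 for Serpinb6c, -0.26 for Serpinb8, -0.071 for Serpinb9, -0.90 for Serpind1, -0.83 for Serpine2, 0.19 for Serping1 and 0.29 for Serpini1. In channel 1 alone, 3 serpins were higher and 12 lower, with 0 and 9 in clade A, 2 and 1 in clade B, and 0 and 1 in clade E. Serpinb1b, Serpinb6a, Serpinb9, Serping1 and Serpini1 did not pass in that channel and are listed beside those that did. The differences were -0.70 for Serpina10, -0.44 for Serpina1b, -0.57 for Serpina3c, -3.21 for Serpina3g, -2.88 for Serpina3h, -1.88 for Serpina3i, -2.22 for Serpina3k, -0.65 for Serpina3m, -2.16 for Serpina3n, 0.60 for Serpinb10, 0.36 for Serpinb1b, 0.12 for Serpinb6a, 0.41 for Serpinb6c, -0.45 for Serpinb8, -0.11 for Serpinb9, -0.90 for Serpind1, -0.72 for Serpine2, 0.24 for Serpinf1, 0.14 for Serping1 and 0.26 for Serpini1. In channel 2 alone, 0 serpins were called in any clade, and called serpins whose sign changed stood at -0.070 for Serpina10, -0.16 for Serpina3c, -0.042 for Serpina3g, -0.030 for Serpina3h, -0.054 for Serpina3i, -0.23 for Serpina3k, -0.14 for Serpina3m, -0.046 for Serpina3n, 0.046 for Serpinb10, -0.12 for Serpinb8 and 0.039 for Serpini1. These settings change which channel enters the ratio, and the cause of the difference between channels was not tested.

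At 2-fold or more, 5 serpins were higher and 0 lower, with 5 in clade A, 0 in clade B and 0 in clade E. At an adjusted p under 0.01, 0 clade B serpins were higher. Quantile normalization and the OVA arrays against 0 each gave 1 lower serpin in clade A. With the replicate number as a block, 9 serpins were higher and 7 lower, with 0 higher in clade B and 1 lower in clade E, and Serpina3c, Serpinb8 and Serpinb9 were no longer called (limma's adjusted p = 0.0504, 0.0960 and 0.109). The deviations of arrays with the same number correlated from -0.15 to 0.00 over 25651 genes, so the numbers are not taken to pair the arrays. Leaving out each array in turn gave 11 to 13 higher and 5 to 7 lower serpins, 0 to 1 lower in clade A and 1 to 3 higher in clade B.

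Signal sets a limit, since 21 serpins lay under a mean intensity of 0.1, the deposited values move in steps of about 0.01, and 12.3% of all such genes passed the threshold. The number of arrays, the conflict between channels and labels, and near-identical Serpina3 genes are the other limits. Which of the 2 directions holds cannot be told apart.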
